A study of Caenorhabditis elegans with 6 samples.

Results

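The genes of eggshell assembly were followed in whole Caenorhabditis elegans adults. The set holds 10 genes, cbd-1, perm-2, perm-4, egg-1, egg-2, egg-3, chs-1, mbk-2, cpg-1 and cpg-2, chosen by name for their known part in building or triggering the shell. Earlier results of these data were known when this set and the lists set beside it were chosen. All 10 were found among the 46748 genes of the count table, by their symbols in the Ensembl annotation of WBcel235, and all 10 passed the filter on low counts. Wild-type N2 worms were compared with worms of strain VDL786, in which the allele crh-1(syb385) removes circ-crh-1, a circular RNA. Its host gene, crh-1, encodes the worm CREB. Total RNA of whole worms on day 1 of adulthood gave 3 libraries for each genotype. Both genotypes were raised at 20 °C on OP50 bacteria and moved at the L4 stage to plates with 25 µM FUdR, a blocker of DNA synthesis used to prevent progeny. A mesh of 30 µm is given in the labels for every sample of both genotypes. The knockout is a single strain, so the edit and other differences between the strains cannot be told apart. The labels call the replicates independent but do not say what each was grown from, so p-values measure only the spread between these libraries.

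The nematode eggshell is built by the oocyte and the newly fertilised egg, from the outside inwards. The oocyte carries the vitelline layer before fertilisation. Sperm entry triggers chitin synthesis beneath it, and cortical granules then release the proteoglycans of the layer below, after which a lipid-rich permeability barrier forms. Much of this machinery is made as mRNA in the growing oocyte, so in a whole worm its level depends on the germline.

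In the annotation, the 10 genes lay on 4 chromosomes. The vitelline-layer genes perm-4 (IV, 1121494 to 1125107, minus strand) and perm-2 (IV, 1126790 to 1128865, plus strand) were divergent neighbours, with 1682 bases between them and no protein-coding gene lying wholly inside that gap. The remaining gene of that layer, cbd-1, lay at IV, 11372991 to 11377627. Of the genes of the chitin layer and its membrane complex, egg-1 (III, 5728180 to 5730159) and egg-2 (III, 7058527 to 7060583) were 1328 kb apart, egg-3 was at II, 10882408 to 10884441, chs-1 at I, 7554855 to 7559916, and mbk-2 at IV, 13009158 to 13035961. The proteoglycan genes were cpg-1 (III, 4489359 to 4491392) and cpg-2 (III, 7102092 to 7103990). Exons of 5 members overlapped those of another gene by 5 to 42 bases, of which 1 overlap, between chs-1 and T25G3.3, was on the same strand.

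Depth was sufficient for every member. The smallest count of any member in any library was 1103, for egg-2 in knockout replicate 2, and the largest was 107572, for cbd-1 in knockout replicate 3. Total counts ran from 38974777 to 47444165. Knockout replicate 2 had 58.5% of its counts on rRNA genes and 14188050 protein-coding counts, against 22.9% to 36.4% and 24272152 to 35075781 in the other libraries. The count of crh-1 was 17.6 to 23.9 CPM (counts brought to a common library size, with TMM factors) in the 6 libraries, but it pools linear and circular transcripts and so checks no label. Together the 10 genes took 0.501%, 0.824% and 0.991% of the protein-coding counts of the wild-type libraries, in order of replicate number, and 0.375%, 0.337% and 1.10% of those of the knockout. The set was thus lowest in knockout replicates 1 and 2 and highest in knockout replicate 3, and the wild-type libraries lay between them.

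The set held some of the more abundant mRNAs of the worm. The mean CPM of single members lay between the 88.4th percentile (mbk-2) and the 99.5th (cbd-1) of the 14354 genes tested. To compare members, levels were divided by exon length and are given as CPM per kb. The means over the 6 libraries were 529 CPM per kb for cpg-2, 459 for cpg-1, 382 for perm-2, 270 for cbd-1, 126 for egg-1, 124 for perm-4, 76.7 for chs-1, 62.2 for egg-2, 57.2 for egg-3 and 18.9 for mbk-2. Structural proteins of the shell thus headed the order, and the kinase mbk-2 closed it. The exon length of mbk-2 pools 14 annotated transcripts, so its level per kb is understated where worms use short forms.

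**Figure D1:**
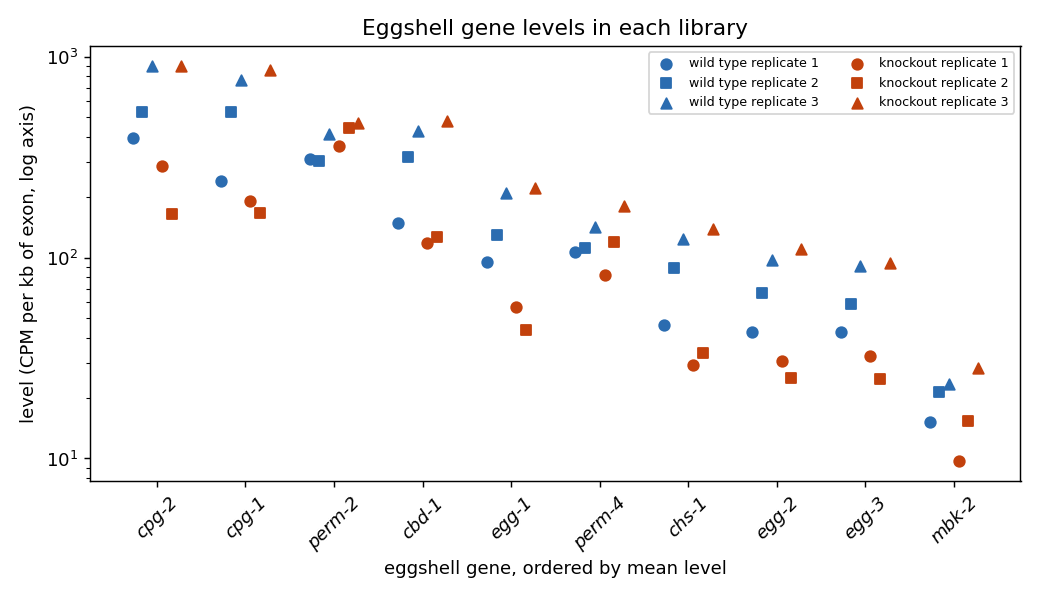
Level of each eggshell gene in CPM per kb of exon (log axis) in each of the 6 libraries, with blue for wild type, orange for knockout and the marker shape for the replicate number. Both cpg genes and cbd-1 spread widely between libraries, while perm-2 stayed between 304 and 467 CPM per kb.

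Only some neighbours in this order were separated in every library. The level of cbd-1 was above that of egg-1 in 6 of 6 libraries, that of perm-4 above that of chs-1 in 6 of 6, and that of egg-3 above that of mbk-2 in 6 of 6. The order of cpg-1 and perm-2, of perm-2 and cbd-1, and of egg-1 and perm-4 held in 3 of 6 libraries each, so these pairs did not differ beyond their spread. The level of cpg-2 was above that of cpg-1 in 5 libraries, chs-1 above egg-2 in 5, and egg-2 above egg-3 in 4. The leading gene also differed between libraries. It was cpg-2 in all 3 wild-type libraries and in knockout replicate 3, and perm-2 in knockout replicates 1 and 2, at 359 and 440 CPM per kb.

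Of the vitelline layer, cbd-1 encodes a chitin-binding protein on which the layer depends. Its level was 622, 1327 and 1791 CPM in the wild-type libraries (replicates 1 to 3, as in all such lists) and 499, 531 and 2019 CPM in those of the knockout. Knockout replicates 1 and 2 were below every wild-type library and knockout replicate 3 was above every one. The wild-type mean was 1247 ± 589 CPM and the knockout mean 1016 ± 869 CPM (SD, n = 3 each), with knockout over wild type at -0.29 on the log2 scale (SE 0.59, adjusted p = 0.996 by edgeR).

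Neither perm-2 nor perm-4, which encode proteins of the same layer, shared this wide range. The level of perm-2 was 222, 218 and 296 CPM in wild type, and 258, 316 and 335 in the knockout. In knockout replicates 2 and 3 it was above every wild-type library, and in knockout replicate 1 it was below wild-type replicate 3, so the groups overlapped. Means were 245 ± 43.8 and 303 ± 40.5 CPM (SD, n = 3 each), with a log2 fold change of 0.30 (SE 0.26, adjusted p = 0.996 by edgeR). The level of perm-4 was 122, 128 and 162 CPM in wild type, and 93.8, 137 and 208 in the knockout, which put knockout libraries at both ends of the range. Its log2 fold change was 0.09 (SE 0.34, adjusted p = 0.996 by edgeR), and -0.11 on library totals alone, a scaling that put the all-gene median at -0.21.

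The ratio of the divergent neighbours, perm-2 over perm-4 in CPM per kb, was 2.90, 2.72 and 2.91 in wild type and 4.37, 3.67 and 2.57 in knockout. It was close to constant in wild type and varied in knockout, with values on either side of those of wild type. The ratio of perm-2 to cbd-1 was 2.09, 0.96 and 0.96 in wild type and 3.02, 3.47 and 0.97 in knockout. Wild-type replicates 2 and 3 and knockout replicate 3 thus held about equal levels of both genes per kb, and the others held an excess of perm-2.

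Chitin is made by the chitin synthase of chs-1. Its level was 200.3, 384 and 539 CPM in wild type, and 127, 146 and 602 in the knockout. The pattern was that of cbd-1, with knockout replicates 1 and 2 lowest and knockout replicate 3 highest, and the log2 fold change was -0.36 (SE 0.61, adjusted p = 0.996 by edgeR). The pseudophosphatase gene egg-3, whose product holds chitin synthase and the kinase MBK-2 at the oocyte cortex, was at 77.1, 106 and 165 CPM in wild type, and 58.6, 45.3 and 171 in the knockout. Knockout replicate 2 was lowest here, and the log2 fold change was -0.34 (SE 0.52, adjusted p = 0.996 by edgeR).

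The genes egg-1 and egg-2 encode related membrane proteins with LDL-receptor repeats, both on the oocyte surface and needed for fertilisation and for the shell. The level of egg-1 was 171, 233 and 377 CPM in wild type, and 102, 78.6 and 401 in the knockout, with a log2 fold change of -0.43 (SE 0.60, adjusted p = 0.996 by edgeR). The level of egg-2 was 75.8, 120 and 173 CPM in wild type, and 54.6, 45.2 and 198 in the knockout, with -0.31 (SE 0.57, adjusted p = 0.996 by edgeR). Both were lowest in knockout replicate 2 and highest in knockout replicate 3. The ratio of egg-1 to egg-2, in CPM per kb, was 2.11 ± 0.162 in wild type and 1.86 ± 0.140 in knockout (SD, n = 3 each) and ran from 1.72 to 2.24, so egg-1 was the more abundant in every library. Reads that map equally well to more than 1 gene were left out of the counts, so levels of such paralogs are uncertain where their sequences are the same.

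The kinase MBK-2, a member of the DYRK family, marks maternal proteins for removal as the oocyte becomes an embryo. The level of mbk-2 was 63.7, 89.2 and 98.0 CPM in wild type, and 40.3, 64.3 and 118 in the knockout. Knockout replicate 1 was lowest and knockout replicate 3 highest, while knockout replicate 2 was just above wild-type replicate 1. The log2 difference between the groups was -0.17 (SE 0.40, adjusted p = 0.996 by edgeR). The ratio of its anchor egg-3 to mbk-2, in CPM per kb, ran from 1.62 in knockout replicate 2 to 3.86 in wild-type replicate 3.

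The proteoglycan layer is represented by cpg-1 and cpg-2, whose products carry chondroitin chains and bind chitin. The level of cpg-1 was 456, 1005 and 1444 CPM in wild type, and 363, 316 and 1627 in the knockout. The level of cpg-2 was 679, 921 and 1552 CPM in wild type, and 494, 284 and 1562 in the knockout. Both were lowest in knockout replicate 2. Log2 fold changes were -0.33 for cpg-1 (SE 0.65, adjusted p = 0.996 by edgeR) and -0.43 for cpg-2 (SE 0.59, adjusted p = 0.996 by edgeR). The ratio of cpg-2 to cpg-1, in CPM per kb, was 1.63, 1.00 and 1.18 in wild type and 1.49, 0.984 and 1.05 in knockout, so that replicates 1 of both genotypes held relatively more cpg-2.

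Most of the variation of these genes lay between libraries of the same genotype. The highest library exceeded the lowest by 3.78-fold (egg-3) to 5.50-fold (cpg-2) in 7 members, by 2.92-fold in mbk-2, by 2.21-fold in perm-4 and by 1.54-fold in perm-2. Within wild type alone the range was 3.17-fold for cpg-1, 2.88-fold for cbd-1 and 1.36-fold for perm-2. The SD of log2 CPM over the 6 libraries was 0.79 to 1.04 in the 7 wide-ranging members, against a median of 0.39 over the 6783 genes whose mean reached 10 CPM. These 7 lay between the 96.5th and the 99.2nd percentile of those genes. The SD of mbk-2 was 0.55 (81.4th percentile), that of perm-4 was 0.39 (49.7th) and that of perm-2 was 0.26 (25.7th). No test was made of these positions.

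**Figure D2:**
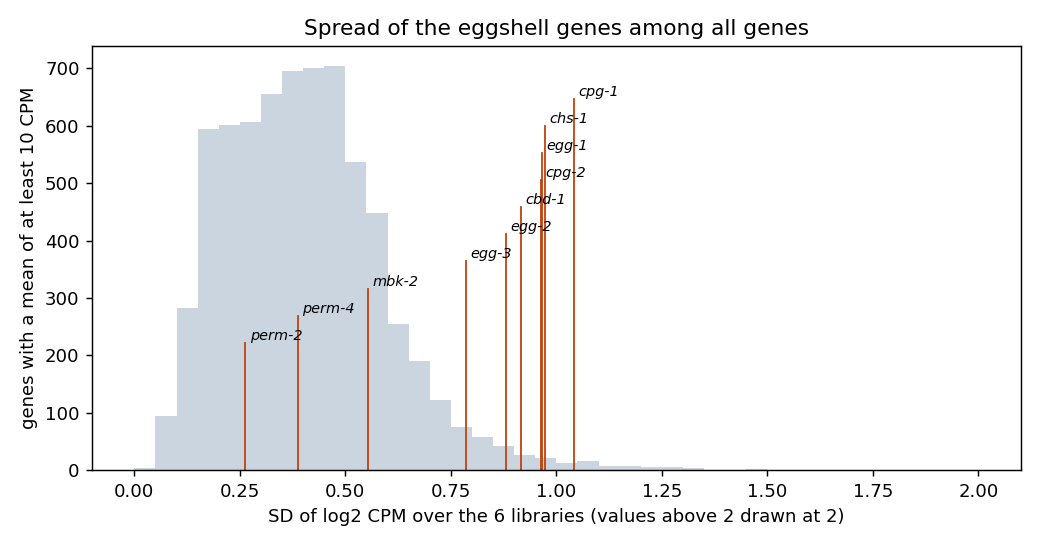
Histogram of the SD of log2 CPM over the 6 libraries for the genes whose mean reached 10 CPM, with lines at the 10 eggshell genes (line heights only separate the labels). The lines of 7 genes stand in the right tail, between 0.79 and 1.04, while perm-2 stands at 0.26, below the median of 0.39.

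The 7 wide-ranging members moved together across libraries. Pearson correlations of log2 CPM over the 6 libraries ran from 0.92 to 1.00 in the 21 pairs among cbd-1, egg-1, egg-2, egg-3, chs-1, cpg-1 and cpg-2. Against the mean of the other 9 members, these genes had correlations of 0.94 (cpg-2) to 0.99 (egg-2), mbk-2 had 0.90, perm-4 had 0.80 and perm-2 had 0.25. The closest partner of perm-4 was mbk-2 (0.91), and that of perm-2 was perm-4 (0.66). These correlations describe 6 points that share library preparation and scaling.

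Relative to the other members, perm-2 varied most from library to library. Its log2 level minus the mean of the others, centred on its own mean, was 0.06, -0.61 and -0.67 in wild type and 0.76, 1.11 and -0.65 in knockout. For perm-4 the values were 0.18, -0.38 and -0.55 in wild type and 0.23, 0.86 and -0.34 in knockout. Both genes thus stood highest against the rest in knockout replicate 2, where the rRNA share was largest, and low in wild-type replicates 2 and 3 and knockout replicate 3. In that same library mbk-2 stood at 0.63, and cpg-2 (-0.74) and egg-1 (-0.56) stood lowest. The part of the rRNA share in this was not tested. For egg-2, egg-3 and cbd-1 the whole range of this value was 0.51, 0.39 and 0.58. In all 10 members the knockout and wild-type values of this measure overlapped.

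**Figure D3:**
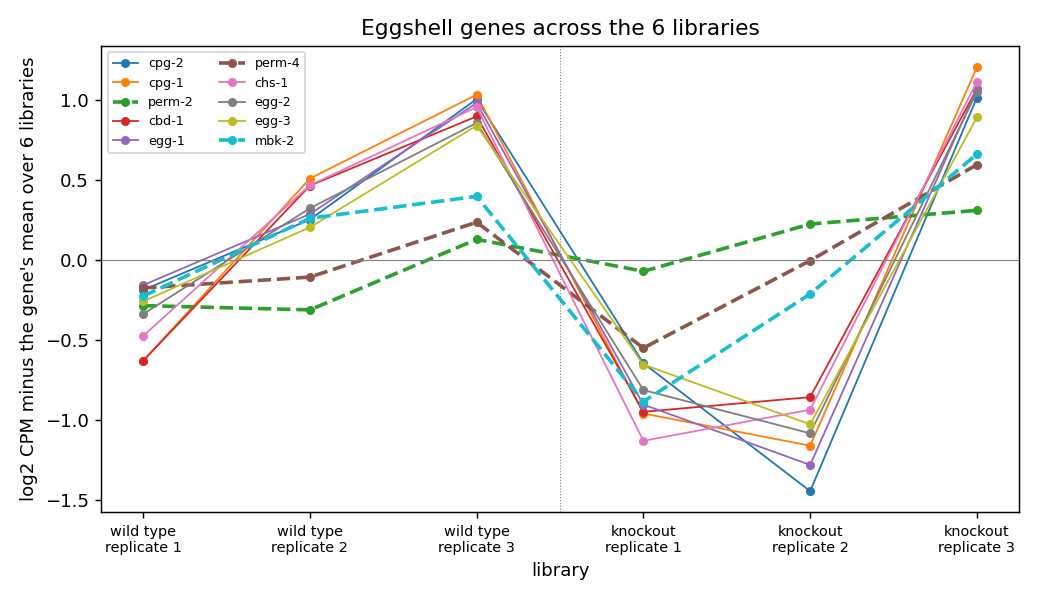
Log2 CPM of each eggshell gene minus its own mean over the 6 libraries, with wild-type libraries left and knockout libraries right of the dotted line; lines join the points of 1 gene only to make it easier to follow. The 7 genes in solid lines share 1 profile, and perm-2, perm-4 and mbk-2 (dashed) stand above them in knockout replicate 2.

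The replicate number went with most of this variation. Wild-type and knockout libraries of the same number deviated together across all genes (correlations of 0.48 to 0.65), and in all 10 members replicate 3 was the highest library of both genotypes, a pattern found in 30.6% of all tested genes. The number took 66.7% to 81.4% of the sum of squares of log2 CPM in 9 members and 47.2% in perm-2, and genotype took 0.170% to 17.7% and 41.7%. Over all tested genes the medians were 68.7% and 8.92%. The number has more degrees of freedom than the genotype, which alone gives it a larger share.

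The comparison of knockout with wild type, here in fits without the replicate block, called no member. Of the 10 genes, edgeR called 0 at an adjusted p under 0.05, 0 had an unadjusted p under 0.05, and DESeq2 and limma-voom each called 0. In the background edgeR called 0% of 14354 genes, 0.982% had an unadjusted p under 0.05, and DESeq2 called 0.186% of 16622. The groups did not overlap in 0 members, against 3.28% of all tested genes. The log2 fold change was below 0 in 8 members, all except perm-2 and perm-4, against 47.7% of tested genes, and it was -0.5 or less in 0 members, against 5.75%. The median was -0.32, and 0.02 over all tested genes. Scaling by library totals alone gave the members a median of -0.39 and all genes one of -0.21.

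The precision of these folds was low in the fit without the block, and a missed threshold does not show equal levels. As knockout over wild type, the fold had its narrowest 95% interval for perm-2, at 0.815 to 1.87, followed by perm-4 at 0.627 to 1.81 and mbk-2 at 0.471 to 1.67. For the other 7 the lower limits were 0.282 (cpg-1) to 0.349 (egg-3), and the upper ones 1.79 (egg-3) to 2.23 (cpg-1). The SE of the log2 fold change of these 7 lay between 0.52 and 0.65 without the replicate block and between 0.26 and 0.34 with it. With it their 95% intervals of the fold had lower limits of 0.372 (cpg-2) to 0.468 (egg-3) and upper limits of 0.9498 (egg-1) to 1.14 (cbd-1), and that of perm-2 was 0.899 to 1.71.

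**Figure D4:**
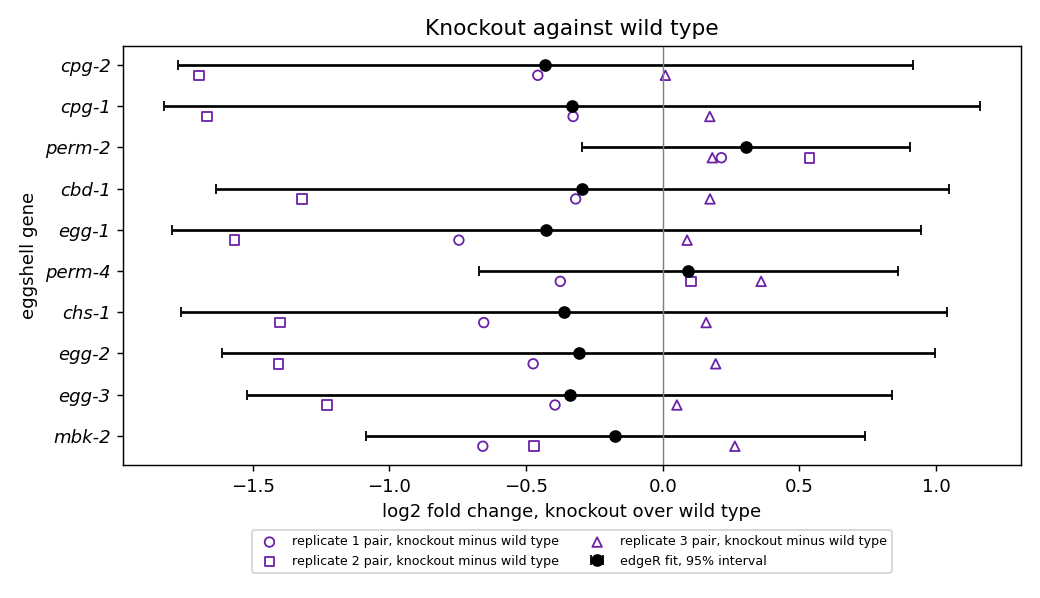
Log2 fold change of each eggshell gene, knockout over wild type, from the edgeR fit (black points, bars are 95% intervals), with the difference in log2 CPM of each same-numbered pair of libraries in open purple symbols. Every interval of this fit, which has no replicate block, spans 0, and in 8 genes the pairs of replicates 1 and 2 lie below 0 and the pair of replicate 3 above it.

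Taken as pairs of the same number, the libraries gave different directions. In 8 members, all but perm-2 and perm-4, the knockout was lower in pairs 1 and 2 and higher in pair 3, a pattern of 27.1% of all tested genes. In those 8 the log2 difference was -0.75 to -0.32 in pair 1, -1.70 to -0.47 in pair 2 and 0.01 to 0.26 in pair 3. In perm-2 the knockout was higher in each pair, by 0.21, 0.54 and 0.18. In perm-4 the differences were -0.38, 0.10 and 0.36. No member was lower in all 3 pairs, against 10.4% of tested genes. With the replicate number as a block in the edgeR fit, the members' median log2 fold change was -0.54. In that fit 0 members were called, against 0.00697% of tested genes, and the smallest edgeR adjusted p of a member was 0.771. One member, egg-1 at -0.74 (SE 0.30), passed the unadjusted threshold of 0.05, which 4.77% of all tested genes passed in that fit. DESeq2 with the block, added after seeing the data, called 0 members and put 3 under that threshold, egg-1, chs-1 and cpg-2. Over all genes with a p-value 690 were under it. An adjusted p was given to 20010 genes, a different base, so these counts give no exact share.

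The direction of the set depended on which libraries were in the fit without the block, where leaving out a library also leaves its same-numbered partner unmatched. When wild-type replicate 3 was left out, 0 of 10 members had a log2 fold change below 0, with a median of 0.07 where that of all genes was 0.12. Without knockout replicate 1 it was below 0 in 5 members (median 0.00), and without knockout replicate 2 in 6 (median -0.02). Without knockout replicate 3 it was below 0 in 9 members, against 46.5% of all genes, with a median of -1.28, and 7 members had an unadjusted p under 0.05 in edgeR. In that fit 19.3% of all 14926 tested genes passed the unadjusted threshold, and the smallest adjusted p of a member was 0.231. Without wild-type replicate 1 the median was -0.57. For perm-2 the value stayed above 0 without each of the 6 libraries, from 0.23 to 0.51.

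Other genes of the eggshell pathway were read from a list of 16. None was called, 12 had a log2 fold change below 0 and 4 above, and the median was -0.30, with 0 at an unadjusted p under 0.05 in edgeR. The pseudophosphatase genes egg-4 and egg-5, whose products bind MBK-2 beside EGG-3, were at -0.36 each (SE 0.52 and 0.53), with mean levels of 29.8 and 42.1 CPM per kb against 57.2 for egg-3. They are near-identical copies of each other, so their levels are uncertain. The gene gna-2, for the enzyme that supplies the sugar precursor of chitin in the germline, stood at -0.45 (SE 0.40), and the proteoglycan gene cpg-3 at -0.48 (SE 0.47). Their levels in knockout replicate 2, at 62.5 and 114 CPM, were the lowest of the 6 libraries, as in cpg-1 and cpg-2. The acyltransferase gene dgtr-1, needed for the permeability barrier, had -0.24 (SE 0.51) and a correlation with the members' mean over the 6 libraries that rounds to 1.00. In the edgeR fit with the replicate block, 3 of the 16 genes (gna-2, cpg-3 and spe-11) had an unadjusted p under 0.05. All tested genes had a share of 4.77% in that fit.

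The genes of both enzymes of fatty acid synthesis on the list, pod-2 and fasn-1, had other profiles. The acetyl-CoA carboxylase gene pod-2 was at 335, 265 and 432 CPM in wild type, and 384, 346 and 389 in the knockout, and the fatty acid synthase gene fasn-1 at 186, 318 and 210 CPM and 183, 311 and 225 CPM. Their correlations with the members' mean over the 6 libraries were 0.22 and -0.0018, against 0.99 for sep-1, the separase gene that acts in cortical granule release. The paternal eggshell factor spe-11, made in sperm, had 0.74 to 2.67 CPM and a log2 fold change of -0.76 (SE 0.47, adjusted p = 0.996 by edgeR). Unlike the members it was highest in wild-type replicate 1.

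Genes for chondroitin synthesis, which build the sugar chains of the CPG proteins, were below 0 in 9 of 9, at a median of -0.26 on the log2 scale, with 0 called. The smallest p were those of the galactosyltransferase gene sqv-3 at -0.37 (SE 0.34), the nucleotide sugar transporter gene sqv-7 at -0.32 (SE 0.31) and the UDP-glucose dehydrogenase gene sqv-4 at -0.35 (SE 0.43). Genes of cortical granules and oocyte membrane traffic were also below 0 in 9 of 9 and had a median of -0.12. They included rab-6.1 at -0.34 (SE 0.31), syx-4 at -0.29 (SE 0.33) and the yolk receptor gene rme-2 at -0.41 (SE 0.64). In neither list was a member called.

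Lists of oocyte and germline genes had profiles close to that of the eggshell genes. The level of a list is its genes' mean deviation, in log2 CPM, from their averages over the 6 libraries. For the eggshell genes it was -0.34, 0.24 and 0.73 in wild type and -0.75, -0.78 and 0.90 in knockout. For 12 regulators of oocyte growth and maternal mRNA, such as puf-11, puf-3 and pos-1, it was -0.28, 0.27 and 0.80 in wild type and -0.90, -0.85 and 0.95 in knockout. For 15 germline genes, among them syp-2, him-3 and syp-1 of the meiotic chromosome axis and synaptonemal complex, it was -0.19, 0.14 and 0.53, and -0.60, -0.49 and 0.61. The regulators had a median log2 fold change of -0.32 with 12 of 12 below 0, and the germline genes -0.25 with 14 of 15 below 0. With the replicate block, 4 of the 12 regulators and 0 of the 15 germline genes had an unadjusted p under 0.05 in edgeR. Over all tested genes the share in that fit was 4.77%. In whole worms, fewer oocytes and less mRNA per oocyte cannot be told apart.

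The sperm, muscle, hypodermal, neuronal and intestinal lists had negative correlations with the eggshell level over the 6 libraries (-0.94 to -0.35). The sperm list stood at 0.60, 0.87 and 0.01 in wild type and 0.37, -0.53 and -1.32 in knockout, with nspd-9 (-1.84, SE 0.67), nspd-4 and spe-26 at the smallest p. All 12 of its tested genes had a log2 fold change below 0 (median -0.77), and the list was lower in the knockout in each same-numbered pair. An unadjusted p under 0.05 was found by edgeR for 1 of the 12, nspd-9, and with the replicate block for 6. Over all tested genes the shares were 0.982% without the block and 4.77% with it. The genes summed to 9.33 to 35.3 CPM, and knockout replicate 3, the library with the highest eggshell level, had the smallest sum. Not every sperm gene was lowest in that library. Body wall muscle genes, with the smallest p at mlc-2, tnt-2 and mlc-1, summed to 1230 CPM in that library and 3595 CPM in knockout replicate 2. Their log2 fold change was above 0 in 10 of 10 (median 0.29), that of neuronal genes in 9 of 10 (median 0.22) and that of intestinal genes in 9 of 10 (median 0.20). Hypodermal genes stood at 0.83, -0.12 and -0.71 in wild type and 0.65, 0.05 and -0.69 in knockout, with dpy-7, col-19 and bli-1 at the smallest p, and neuronal genes, with the smallest p at egl-21, unc-64 and egl-3, at 0.03, 0.04 and -0.28 and 0.23, 0.45 and -0.48. The means of the sperm, hypodermal and neuronal lists were thus lowest in replicate 3 of both genotypes, where the eggshell genes were highest. Single genes did not all share this. Their correlations with the members' mean ran from -0.95 to 0.97 in the hypodermal list and from -0.97 to 0.55 in the neuronal list. In the sperm list they ran from -0.71 (msp-19) to 0.72 (spe-41). Scarce genes also weigh fully in such a mean, as with bli-1 at 0.13 to 1.57 CPM.

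The intestinal list, with the smallest p at cpr-1, act-5 and asp-1, was lowest in wild-type replicate 2 (-0.59). The mean of the somatic gonad list, with the smallest p at inx-9, nhr-6 and inx-8, followed the eggshell genes with a smaller range. It stood at -0.05, 0.04 and 0.12 in wild type and -0.20, -0.12 and 0.22 in knockout, a correlation of 0.97 over the 6 libraries. Its single genes did not all follow, with correlations from -0.96 to 0.99. The log2 fold change was below 0 in 5 of them and above 0 in 4. Zygotic genes of the early embryo were scarce, with 5 of 12 tested, vet-2, elt-7 and pes-1 among them, and a sum of 16.3 to 58.8 CPM. Most of that sum was vet-2, at 12.5 to 49.1 CPM. The level of the zygotic list was -0.21, 0.85 and -0.38 in wild type and -0.90, 0.54 and 0.10 in knockout, highest in replicate 2 of both genotypes. In each of these cell type lists edgeR called 0 genes. Without the block, nspd-9 alone had an unadjusted p under 0.05, and with it none did outside the sperm list. The part of the makeup of the worms in the eggshell levels was not tested.

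**Figure D5:**
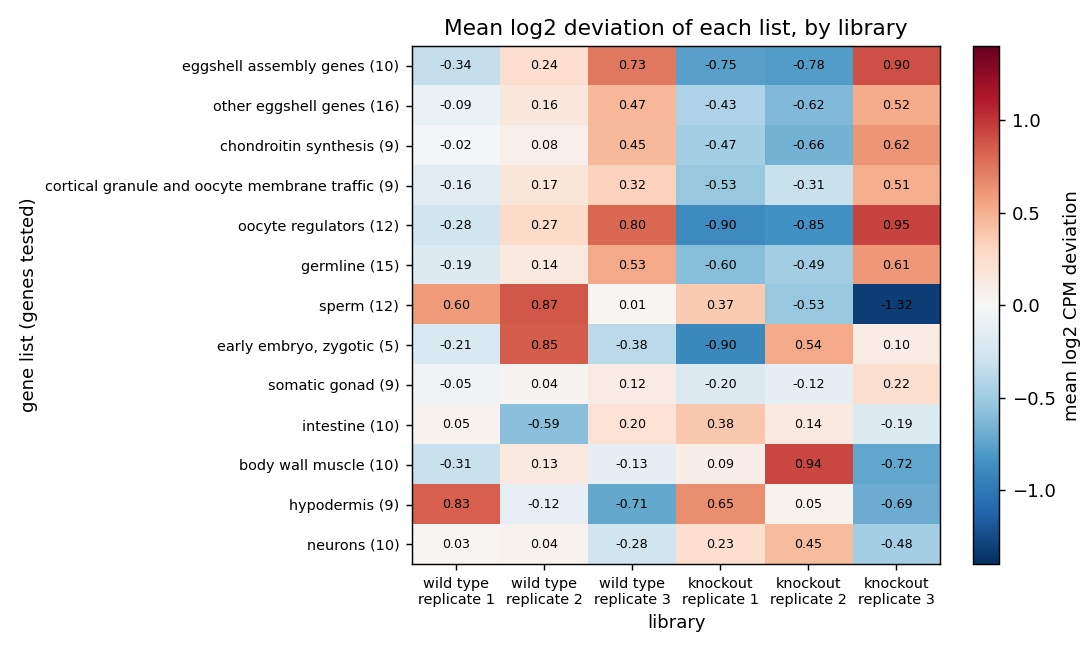
Mean log2 CPM deviation of each gene list in each library (red above and blue below the list's mean over the 6 libraries; the number of genes tested is in brackets). The eggshell row runs from -0.78 in knockout replicate 2 to 0.90 in knockout replicate 3, and the oocyte regulator row from -0.90 to 0.95.

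The genes most like the members were sought among 2549 other genes whose mean reached 10 CPM and whose SD was at least 0.5 times the members' median SD. The 10 with the largest correlation with the members' mean over the 6 libraries were usp-48, T21B10.3, him-17, cdc-25.1, R02F2.4, deps-1, lex-1, vps-35, dgtr-1 and hum-2, each with a Pearson r that rounds to 1.00. Of all candidates, 48.6% had an r of at least 0.95, so closeness to the eggshell profile was common. For perm-2, the member least like the others, the 5 closest were sought among the same candidates. They were the noncoding gene F31C3.14 (r = 0.94), the collagen gene col-95 (0.92), set-26 (0.76), the snRNA gene F10D2.13 (0.74) and set-9 (0.67). The SD of perm-2, 0.26, was itself below the limit for candidates, so genes as steady as perm-2 were not searched. The level of F31C3.14 was 7.12, 5.07 and 14.6 CPM in wild type, and 18.3, 37.9 and 47.4 in the knockout. Its log2 fold change was 1.95 (SE 0.48, adjusted p = 0.996 by edgeR). The level of col-95 was 65.0, 59.7 and 108 CPM in wild type, and 111, 122 and 123 in the knockout. Its log2 fold change was 0.61 (SE 0.30, adjusted p = 0.996 by edgeR). The groups of F31C3.14 and col-95 did not overlap, as in 3.28% of all tested genes, and those of set-26, F10D2.13 and set-9 did. All were picked for their likeness to perm-2.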

How the data were processed

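The deposited values are raw counts of read pairs over the exons of each gene, made by the authors with featureCounts 1.5.0 at strand setting 2 on WBcel235, per the file headers. The command has no option for reads of several places or genes, so such reads were left out. Other tools named, per the submitters' processing notes, are HISAT2 2.1.0, DESeq2 1.26.0 and bcl2fastq 2.19. Per the labels' protocols, libraries came from 1 µg of total RNA by a stranded kit. Exon lengths, in bases, are those of the deposited table.

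Symbols, biotypes and positions came from Ensembl 115 (WBcel235), which holds 46449 of the 46748 genes. The test was that of edgeR 4.0.16 (R 4.3.3): filterByExpr (minimum count 10, minimum total 15), TMM scaling, and the quasi-likelihood F test with robust estimation, without covariates, over 14354 genes. P-values were adjusted by Benjamini-Hochberg over all of them, with a threshold of 0.05. SE is the size of the log2 fold change divided by the root of the F statistic. Log2 CPM used a prior count of 2. Members and lists were chosen with earlier results of these data known. All members are named, as are any of the other eggshell genes, the 3 genes of smallest p in every other list, the 10 genes most correlated with the members' mean and the 5 most correlated with the least typical member. The fits without the block were tested on simulated data that held no pairing by number, and no result here rests on that test.

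Same-numbered libraries had correlations of 0.65, 0.48 and 0.58 between deviations from their group means over 14354 genes, and other pairs -0.53 to 0.02. On this basis the pair differences and the fits with the replicate block took samples as paired by number. That pairing is an assumption from the data that the labels do not state. The main edgeR fit took samples as unpaired, so its SE and p-values make no allowance for the replicate number. Alternatives were other scalings, filters and gene sets, DESeq2 1.42.0, limma-voom (limma 3.58.1), the older edgeR method, the replicate block and each library left out. DESeq2 with the block was added after seeing the data.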

Additional observations from a re-analysis of the deposited data

How the results depend on the processing

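No member was called under any of the 18 alternatives, and among the 180 member values 15 changed sign, of which 14 came from leaving out a library. The other was perm-4, at -0.11 on library totals alone. Without each library in turn, log2 fold changes ran from -1.27 to 0.13 for cbd-1, -1.45 to 0.0616 for chs-1, -1.51 to 0.14 for cpg-1, -1.43 to 0.0236 for cpg-2, -1.52 to 0.000376 for egg-1, -1.30 to 0.0844 for egg-2, -1.16 to 0.0584 for egg-3, -0.67 to 0.12 for mbk-2, 0.23 to 0.51 for perm-2 and -0.24 to 0.33 for perm-4. The members' median ran from -1.28 to 0.0730 and the count below 0 from 0 to 9. The lowest values of 9 members and of the median came without knockout replicate 3. Over all genes, the count called was 0 in the main edgeR fit, 5 on library totals alone, 31 with DESeq2, 1 with the replicate block and 34 with DESeq2 and the block, and 0 without each library. The block changed no member's call. The cause of these differences was not tested. With 3 libraries a group, the interval given for a fold is the range of folds compatible with the data of that fit. In the main edgeR fit the interval of every member spanned no change. In the edgeR fit with the block that of egg-1, at 0.377 to 0.9498, lay below no change, without adjustment for the number of genes tested.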
